A study of Mus musculus with 6 samples.

Results

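Growth factors of the fibroblast family (FGF) and hepatocyte growth factor (HGF) were followed in mouse prostate stromal cells through 10 genes, of 24346 gene symbols measured. They comprise 6 ligand genes (Fgf2, Fgf7, Fgf10, Fgf18, Fgf21 and Hgf) and 4 receptor genes (Met, Fgfr1, Fgfr2 and Fgfr3), chosen by name. The level of a gene is its FPKM, a fragment number divided by transcript length and by the size of the library, summed over the transcript models that carry its symbol. There were 3 S37A libraries, from cells infected with the FU-CGW lentiviral vector carrying the S37A form of β-catenin, and 3 vector libraries, labelled as carrying the vector.

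Both groups were primary stromal cultures from the prostates of C57BL/6 mice aged 8 to 12 weeks, and both kept their own Ctnnb1 gene. Both were grown on collagen with serum, insulin and 1e-10 M dihydrotestosterone (DHT), an androgen, and both were purified by discarding the cells that had not attached within 30 min of replating. The labels do not give the promoter that drives the insert, nor whether the 3 replicates of a group came from separate animals or cultures. The p-values therefore measure the spread between these libraries, which may be technical.

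In the prostate, as in other glands, stromal cells make growth factors that act on the epithelium across the tissue boundary. FGF7 and FGF10 are such paracrine ligands: they bind the IIIb splice form of FGFR2, which epithelial cells make, while mesenchymal cells make the IIIc forms of the FGF receptors. HGF, also called scatter factor, is secreted by mesenchymal cells as an inactive single chain, is activated by cleavage, and signals through the receptor tyrosine kinase MET on epithelial cells. FGFs need heparan sulfate chains on the cell surface to form a signalling complex with their receptors, and both families of receptors signal through RAS and the ERK kinases.

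Ctnnb1, which encodes β-catenin, had 132, 144 and 146 FPKM in the S37A libraries, against 116, 99.1 and 116 FPKM in the vector libraries (limma adjusted p = 0.0158), and Axin2, a direct target of β-catenin, averaged 2.95 ± 0.296 FPKM in S37A libraries and 0.131 ± 0.0385 FPKM in vector libraries (SD, n = 3 each). The files hold no read counts, and interval widths around the FPKM values correspond to 36.8 to 42.3 M fragments in S37A libraries and 41.7 to 45.3 M in vector libraries. Between 10964 and 11098 genes reached 1 FPKM in a library. Summed over 14 markers of fibroblast and smooth muscle stroma, the level was 12038 to 12119 FPKM in S37A libraries and 10446 to 10822 FPKM in vector libraries, so markers of the labelled cell type were present. Of 15 markers of prostate epithelium, summed levels were 29.4 to 43.6 FPKM in S37A libraries and 34.0 to 45.3 FPKM in vector libraries, and no marker on either list was at 0 in every library. For 10 markers of endothelium the sums were 100 to 105 FPKM in S37A libraries and 104 to 119 FPKM in vector libraries.

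Over the 12022 genes tested (those averaging 0.5 FPKM or more, by limma on log2(FPKM + 1), adjusted p under 0.05), 26.0% were called, 6.06% higher and 19.9% lower in S37A libraries. Of the 10 growth factor and receptor genes, 9 passed the filter and Fgfr3 did not. Of these 9, Fgf7 and Hgf fell, 0 rose and 7 were not called, so the 2 falls are close to the share of all genes that fell. The S37A and vector ranges did not overlap for 2 genes, again Fgf7 and Hgf, where 47.8% of all tested genes did not overlap with 11.3% higher and 36.5% lower in S37A. The median difference of the 9 genes was -0.08 on the log2 scale, 7 of 9 being negative, and that of all tested genes was -0.07. The call split over all genes depends on scaling: 729 genes were higher and 2393 lower with FPKM as deposited, 1265 higher and 945 lower with median-ratio scaling, 1094 and 957 with quantile normalization, and 900 and 1500 with the 100 most abundant genes left out of the scaling.

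**Figure D1:**
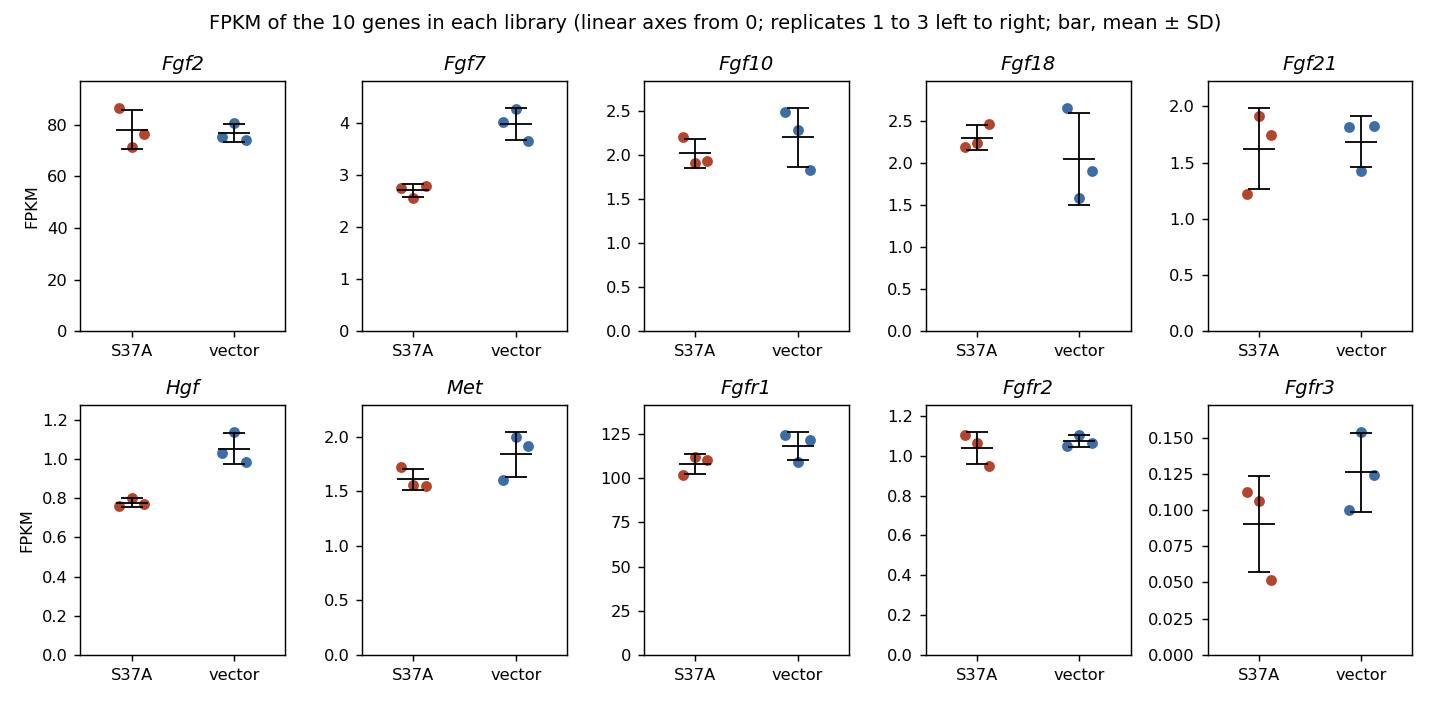
FPKM of each growth factor and receptor gene in each library, with S37A libraries left of vector libraries in every panel; points are libraries and bars are group means with SD (n = 3). The S37A points of Fgf7 and Hgf lie below all vector points, and the groups overlap for the other 8 genes.

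Fgf7 encodes keratinocyte growth factor, which stromal cells secrete and which acts on epithelium through FGFR2 IIIb. It lies on chromosome 2 (GENCODE M21 on mm10, as for all genes here, protein-coding, 126034658 to 126091185, plus strand), and the files hold 1 transcript model of it. Its level was 2.76, 2.57 and 2.80 FPKM in the S37A libraries, against 4.03, 4.28 and 3.65 FPKM in the vector libraries. Every S37A library lay below every vector library. Fgf7 thus fell to 2.71 ± 0.126 FPKM in S37A libraries, against 3.99 ± 0.313 FPKM in vector libraries (SD, n = 3 each), a ratio of 0.680. The log2 difference was -0.43 (SE 0.06, 95% interval -0.56 to -0.29), with a limma adjusted p of 0.0070. Its exact two-sided permutation p was 0.1, the smallest that 3 against 3 libraries allow. Fgf7 was called in all 16 alternatives that could test it, with limma adjusted p from 0.00281 to 0.0327. In a bulk sample, fewer cells that make a transcript and less of it per cell cannot be told apart.

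The 250 bases before the start of Fgf7 and of Hgf, the 2 genes that fell, are given from RefSeq (GRCm38.p6), 5′ to 3′ on the plus strand. Capitals mark the letters CTTTGA or CTTTGT on either strand, the core that the TCF and LEF partners of β-catenin bind.
Fgf7, chr2:126034408-126034657: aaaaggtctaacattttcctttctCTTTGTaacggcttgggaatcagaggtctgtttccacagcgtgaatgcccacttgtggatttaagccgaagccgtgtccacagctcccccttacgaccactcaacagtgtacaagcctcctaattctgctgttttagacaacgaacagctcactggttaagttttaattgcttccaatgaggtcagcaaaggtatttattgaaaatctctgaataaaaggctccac
Hgf, chr5:16553245-16553494: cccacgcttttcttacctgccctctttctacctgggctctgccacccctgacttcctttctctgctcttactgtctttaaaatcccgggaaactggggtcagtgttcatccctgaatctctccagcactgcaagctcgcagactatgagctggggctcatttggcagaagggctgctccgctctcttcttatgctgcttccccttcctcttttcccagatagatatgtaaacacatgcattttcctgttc
The Fgf7 window holds 1 such match and the Hgf window 0. At least 1 match occurs in 27.6% of all 32851 RefSeq mouse promoter windows of this length. RefSeq gives 11 windows for 9 of the 10 genes, with 2 starts each for Hgf and Fgfr3 and none for Fgfr1, and the window printed for Hgf is that of its first start. The 9 windows not printed, that of the second Hgf start included, also hold 0. The AP-1 motif TGANTCA, bound by the FOS and JUN proteins, occurs in 6.75% of all windows, has 1 match in that of Met and 0 in those of the other genes. A match of letters is a description of the sequence and not a binding site.

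Hgf encodes the ligand of MET. It lies on chromosome 5 (16553495 to 16620152, plus strand) and was the lowest of the ligands. Its level was 0.760, 0.801 and 0.773 FPKM in the S37A libraries, against 1.03, 1.14 and 0.986 FPKM in the vector libraries. The S37A libraries were close to each other and all lay below the vector libraries. Hgf fell to 0.778 ± 0.0212 FPKM in S37A libraries, against 1.05 ± 0.0798 FPKM in vector libraries (SD, n = 3 each), a ratio of 0.739. The log2 difference was -0.21 (SE 0.05, 95% interval -0.33 to -0.08), with a limma adjusted p of 0.0303 and an exact two-sided permutation p of 0.1.

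The Hgf difference was negative in all 15 alternatives, between -0.39 and -0.16 on the log2 scale, but was called in 7 of them. The limma adjusted p was 0.0588 with median-ratio scaling, 0.0778 with quantile normalization, and 0.0725, 0.0745 and 0.0880 without S37A replicates 1, 2 and 3. It was 0.0776 without vector replicate 2 and 0.0538 without vector replicate 3. Markers of macrophages, a cell type that also lives in stroma, moved with the groups: of 14, 9 were tested, 7 were higher and 0 lower in S37A (6.06% and 19.9% over all tested genes), and none was at 0 in every library. Their summed level was 56.6 to 64.6 FPKM in S37A libraries and 22.2 to 28.8 FPKM in vector libraries, and their part in the Fgf7 and Hgf results was not tested. Stromal markers moved too: of 14, 13 were tested, 5 were higher and 1 lower in S37A (6.06% and 19.9% over all tested genes). The 5 were the smooth muscle genes Cnn1, Des, Myh11, Tagln and Acta2, and Cnn1 rose to 455 ± 14.1 FPKM in S37A libraries, against 341 ± 4.21 FPKM in vector libraries (log2 difference 0.42, limma adjusted p = 0.00155). Pdgfra, a receptor that marks fibroblasts, fell to 15.8 ± 0.408 FPKM in S37A libraries, against 18.8 ± 0.861 FPKM in vector libraries (-0.23, limma adjusted p = 0.0132). Other stromal markers that were not called went both ways. Means in S37A against vector libraries were 1970 and 1682 FPKM for Col1a1, 920 and 757 for Col1a2, and 244 and 220 for Col3a1. They were 50.8 and 50.7 FPKM for Pdgfrb, and 67.9 and 80.7 for Dcn. With median-ratio scaling 7 stromal markers were higher and 0 lower, and 0 were lower without S37A replicate 3. The 5 calls did not all hold: 2 stromal markers were higher with no filter on low values and 2 with the replicate block. Leaving out S37A replicate 1, 2 or 3 or vector replicate 3 also left 2 higher. The part of the smooth muscle and fibroblast genes in the Fgf7 and Hgf results was not tested either.

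The files give Hgf 5 transcript models. One of these, with a second start site, lacks 15 bases of an exon (mm10, chr5:16572492-16572506) and has an open reading frame of 723 codons, where the model that holds them has 728. The bases are shown because they set the lengths of these reading frames apart, in capitals within their neighbours in the GENCODE M21 transcript. The models also differ in their start site, so the division of Hgf between them does not rest on these bases alone.
Hgf with the 15 bases: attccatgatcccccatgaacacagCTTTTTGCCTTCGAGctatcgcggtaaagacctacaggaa
The model without the 15 bases had 0.525, 0 and 0.486 FPKM in the S37A libraries, against 0.238, 0.936 and 0.807 FPKM in the vector libraries. The main model with them had 0.234, 0.801 and 0.287 FPKM in the S37A libraries, against 0.794, 0 and 0.179 FPKM in the vector libraries. One further model was listed above 0 in a single library, vector replicate 2, at 0.205 FPKM. Each of the models with and without the bases was listed at 0 in a library where the other carried the gene, while the sums stayed close within each group. The share of the model without the bases was 69.2%, 0% and 62.9% in S37A libraries, against 23.1%, 82.0% and 81.8% in vector libraries (exact two-sided permutation p = 0.5). The libraries of a group thus disagree on the division by more than the groups differ.

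Fgf10, the other ligand of FGFR2 IIIb and a mesenchymal signal in the budding of many glands, lies on chromosome 13 (118669791 to 118792115, plus strand) and was not called. Its level was 2.21, 1.91 and 1.94 FPKM in the S37A libraries, against 2.49, 2.28 and 1.83 FPKM in the vector libraries. The groups overlap, since the lowest value is that of a vector library. The log2 difference was -0.08 (95% interval -0.28 to 0.12, limma adjusted p = 0.494, exact two-sided permutation p = 0.6). Fgf7 and Fgf10 were not tested against each other.

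Fgf2, or basic FGF, a ligand that leaves cells without a signal peptide and binds the IIIc receptors, was by far the most abundant ligand, at a level above that of 92.2% of tested genes. It lies on chromosome 3 (37348346 to 37410108, plus strand). Its level was 86.5, 71.3 and 76.4 FPKM in the S37A libraries, against 75.1, 80.5 and 74.1 FPKM in the vector libraries. The highest and the lowest values are both those of S37A libraries. The means were 78.1 ± 7.70 FPKM in S37A libraries and 76.6 ± 3.45 FPKM in vector libraries (SD, n = 3 each), and the log2 difference was 0.02 (95% interval -0.14 to 0.19, limma adjusted p = 0.813, exact two-sided permutation p = 0.8). The model of Fgf2 in the files has 695 bases where the GENCODE transcript has 5973, and 5199 bases of the gene overlap Nudt6 on the opposite strand. The libraries carry no mark of strand, so reads of Fgf2 and of Nudt6 in that overlap cannot be told apart by strand. The overlap is that of the whole gene spans, and whether the measured models of Fgf2 and Nudt6 share bases was not tested. Nudt6, a nudix hydrolase gene, had 56.0, 47.3 and 50.2 FPKM in the S37A libraries, against 48.7, 49.4 and 46.9 FPKM in the vector libraries (limma adjusted p = 0.354). Both genes were highest in S37A replicate 1.

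Fgf18 (chromosome 11, 33117430 to 33147400, minus strand), known for its part in the growth of bone and cartilage, had 2.19, 2.24 and 2.47 FPKM in the S37A libraries, against 2.66, 1.59 and 1.91 FPKM in the vector libraries. The vector libraries spanned the S37A ones, with vector replicate 1 the highest of all. The log2 difference was 0.13 (95% interval -0.15 to 0.40, limma adjusted p = 0.444, exact two-sided permutation p = 0.5). Without vector replicate 1 it was 0.26, with a limma adjusted p of 0.0419, so the call depends on that library. A second, noncoding model of Fgf18 was listed at 0 in every library.

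Fgf21 (chromosome 7, 45613886 to 45615490, minus strand), an endocrine FGF of liver that needs the co-receptor β-Klotho, had 1.22, 1.91 and 1.74 FPKM in the S37A libraries, against 1.81, 1.42 and 1.82 FPKM in the vector libraries. The groups overlap and S37A replicate 1 was the lowest. The log2 difference was -0.04 (95% interval -0.30 to 0.22, limma adjusted p = 0.806, exact two-sided permutation p = 0.8). The interval widths correspond to 43 to 66 fragments of Fgf21 per library, which limits the precision of these values.

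**Figure D2:**
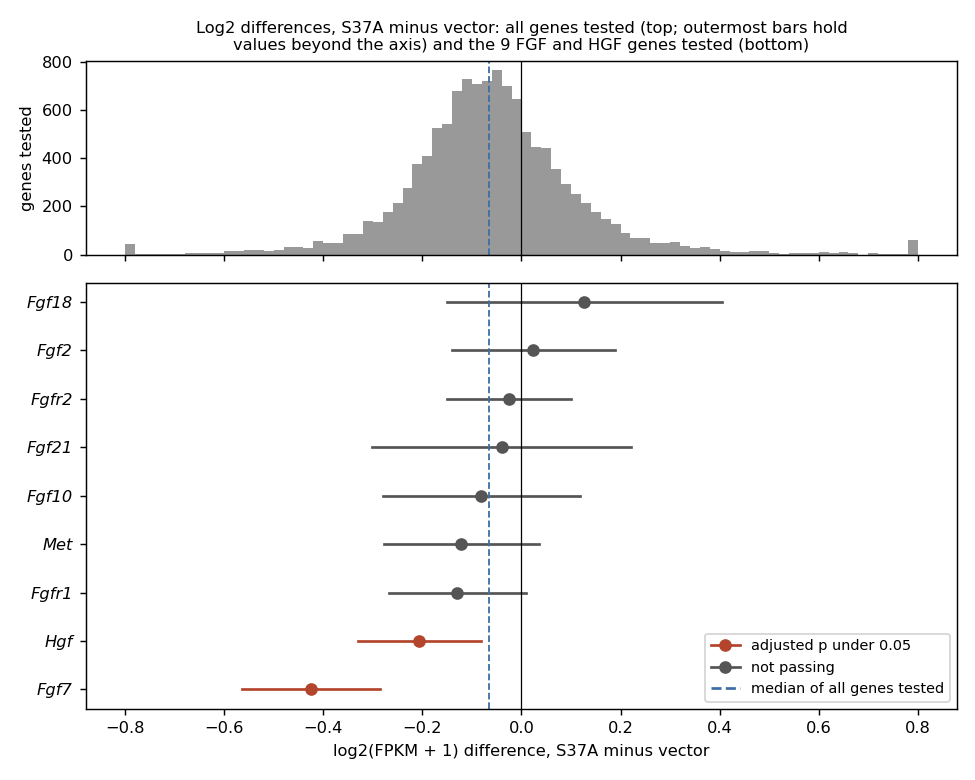
Difference in log2(FPKM + 1), S37A minus vector, of the 9 tested genes, with 95% intervals from limma. The intervals of Fgf7 (-0.56 to -0.29) and Hgf (-0.33 to -0.08) lie below 0 and the other 7 include 0.

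Fgfr1, the main FGF receptor of mesenchymal cells, had the highest level of the 10 genes, above that of 94.9% of tested genes. It lies on chromosome 8 (25513654 to 25575718, plus strand). Its level was 102, 112 and 111 FPKM in the S37A libraries, against 124, 109 and 122 FPKM in the vector libraries. Vector replicate 2 lay among the S37A libraries, so the groups overlap. The means were 108 ± 5.55 FPKM in S37A libraries and 118 ± 8.02 FPKM in vector libraries (SD, n = 3 each), and the log2 difference was -0.13 (95% interval -0.27 to 0.01, limma adjusted p = 0.136, exact two-sided permutation p = 0.3). With sample weights the limma adjusted p was 0.0375.

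Fgfr1 was divided among 3 models, all with the IIIc exon in the third immunoglobulin (Ig) loop. They differ in the first Ig loop, a 267-base exon (chr8:25555508-25555774) whose loss shortens the extracellular part of the receptor, and in 6 bases between the first and the second loop (chr8:25557815-25557820). The sequence around the 6 bases is given because the 2 models with the first loop differ by those bases alone, which are in capitals (GENCODE M21 transcripts, plus strand).
Fgfr1 with the 6 bases: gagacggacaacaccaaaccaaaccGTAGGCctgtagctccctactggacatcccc
Fgfr1 without the 6 bases: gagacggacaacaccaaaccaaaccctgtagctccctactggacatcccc
The model without the first loop, which holds the 6 bases, had 43.3, 59.0 and 58.6 FPKM in the S37A libraries, against 54.0, 41.1 and 50.8 FPKM in the vector libraries. The model with the first loop and without the 6 bases had 44.8, 53.0 and 52.0 FPKM in the S37A libraries, against 53.8, 43.5 and 52.6 FPKM in the vector libraries. Neither separates the groups.

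The Fgfr1 model with both the first loop and the 6 bases was listed at 13.6, 0 and 0 FPKM in the S37A libraries, against 16.6, 24.7 and 18.3 FPKM in the vector libraries. Every S37A value is below every vector value, but over the 14550 models tested the limma adjusted p was 0.124. It took 13.4%, 0% and 0% of Fgfr1 in S37A libraries, against 13.3%, 22.6% and 15.0% in vector libraries, and these shares overlap (exact two-sided permutation p = 0.2). The model without the first loop took 42.6%, 52.7% and 53.0% of Fgfr1 in S37A libraries, against 43.4%, 37.6% and 41.8% in vector libraries (exact two-sided permutation p = 0.2). The model with the first loop and without the 6 bases took 44.1%, 47.3% and 47.0% in S37A libraries, against 43.3%, 39.8% and 43.2% in vector libraries, where the groups do not overlap (exact two-sided permutation p = 0.1). It is the sole model that lacks the 6 bases. The 3 shares sum to the whole, so they are not separate results, and a value listed at 0 beside models that share nearly all of its bases can be a failed estimate.

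**Figure D3:**
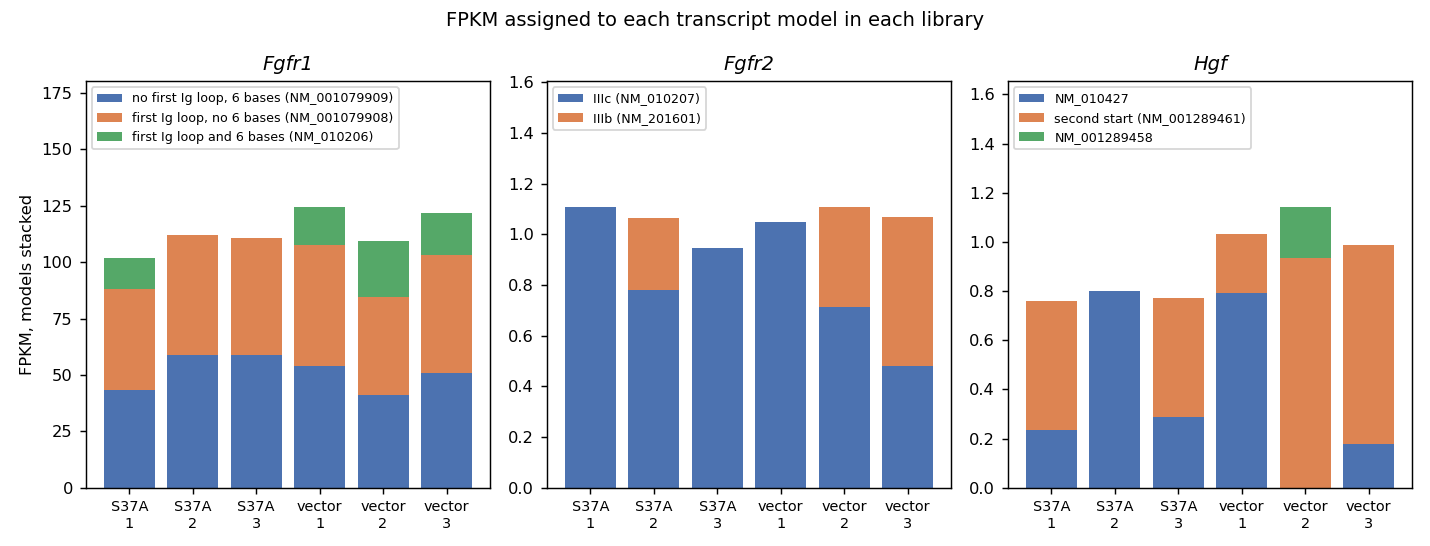
FPKM of the transcript models of Fgfr1, Fgfr2 and Hgf stacked by library, with S37A libraries left of vector libraries. The height of a bar is the gene's level; the division within a bar changes between libraries of 1 group, as for Hgf, where the model without the 15 bases (second start) takes 69.2%, 0% and 62.9% in S37A libraries.

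Fgfr2, the receptor of FGF7 and FGF10 in its IIIb form, lies on chromosome 7 (130162451 to 133123350, minus strand) and was low. Its level was 1.11, 1.07 and 0.947 FPKM in the S37A libraries, against 1.05, 1.11 and 1.07 FPKM in the vector libraries. The groups overlap and the log2 difference was -0.02 (95% interval -0.15 to 0.10, limma adjusted p = 0.751, exact two-sided permutation p = 0.7). The exon that makes the IIIb form is given because it decides that the receptor binds FGF7 and FGF10. It encodes the second part of the third Ig loop. The capitals mark the exon of 148 bases, and the lower-case ends are its neighbours in the GENCODE M21 transcript (minus strand).
Fgfr2 IIIb exon, chr7:130199758-130199905: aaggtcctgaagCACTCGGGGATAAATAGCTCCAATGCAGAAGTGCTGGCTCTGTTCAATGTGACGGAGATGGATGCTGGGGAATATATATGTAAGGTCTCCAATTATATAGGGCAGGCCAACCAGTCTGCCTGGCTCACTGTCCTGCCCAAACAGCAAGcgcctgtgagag

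The IIIc model of Fgfr2 had 1.11, 0.782 and 0.947 FPKM in the S37A libraries, against 1.05, 0.711 and 0.480 FPKM in the vector libraries (limma adjusted p over models = 0.470). The IIIb model had 0, 0.283 and 0 FPKM in the S37A libraries, against 0, 0.394 and 0.588 FPKM in the vector libraries. The IIIb form was thus listed above 0 in 1 S37A library and 2 vector libraries, and the IIIc form in all 6. The IIIb share was 0%, 26.6% and 0% in S37A libraries, against 0%, 35.7% and 55.1% in vector libraries (exact two-sided permutation p = 0.4). The IIIb model in the files also lacks 345 bases that the IIIc model holds nearer the start, so reads there count for the IIIc model and the division does not rest on the third loop alone. Esrp2, an epithelial splicing factor that favours the IIIb exon, had 5.27, 5.23 and 5.22 FPKM in the S37A libraries, against 6.16, 5.79 and 5.75 FPKM in the vector libraries (limma adjusted p = 0.0433). That call depends on the setting: it was the sole epithelial marker called lower, and 0 were called lower with any of the 3 other scalings, with the replicate block, with a minimum of 5 FPKM, with no filter, with the highest model of each gene alone, or without any 1 of the 6 libraries. Its relative Esrp1 averaged 0.0825 FPKM in S37A libraries and 0.122 FPKM in vector libraries and was under the filter. The part of epithelial cells in the IIIb values was not tested.

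Fgfr3 (chromosome 5, 33721674 to 33737068, plus strand), a receptor known for restraining bone growth, was near the lower end of detection, with 0.112, 0.106 and 0.0520 FPKM in the S37A libraries, against 0.0997, 0.154 and 0.124 FPKM in the vector libraries. The groups overlap (exact two-sided permutation p = 0.3). With no filter on low values the log2 difference of Fgfr3 was -0.05 (limma adjusted p = 0.314), and its low level limits what this can show. Met (chromosome 6, 17463800 to 17573980, plus strand), the HGF receptor, had 1.72, 1.56 and 1.54 FPKM in the S37A libraries, against 1.61, 2.00 and 1.92 FPKM in the vector libraries. S37A replicate 1 lay above vector replicate 1, so the groups overlap. The log2 difference of Met was -0.12 (95% interval -0.28 to 0.04, limma adjusted p = 0.205, exact two-sided permutation p = 0.2), and with sample weights the limma adjusted p was 0.0390.

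The genes differed widely in level per length of transcript over the 6 libraries. Fgfr1 (mean 113 FPKM) lay above Fgf2 (77.3 FPKM), with no overlap between them. Fgf7, Fgf18, Fgf10, Met and Fgf21 followed, with means of 3.35, 2.18, 2.11, 1.72 and 1.66 FPKM, and each overlapped its neighbour in that order. Fgfr2 (1.06 FPKM) and Hgf (0.915 FPKM) overlapped each other but not Fgf21, and Fgfr3 (0.108 FPKM) was below all. The Fgf2 level is relative to its short model, which sets the length it is divided by. The ligands of the IIIb form, Fgf7 and Fgf10, were thus each above Fgfr2 in every library, while the receptor present at high level was Fgfr1.

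Of 102 other genes of the pathways, 74 were tested, of which 7 rose, 10 fell and 57 were not called, with a median log2 difference of -0.02, where 6.06% of all tested genes rose and 19.9% fell. With median-ratio scaling 17 rose and 6 fell. The other FGF ligand genes were nearly silent: of 17, 4 were at 0 in every library and Fgf13 alone passed the filter, at 1.16 ± 0.157 FPKM in S37A libraries and 1.07 ± 0.126 FPKM in vector libraries (limma adjusted p = 0.559). Of 9 other receptors and co-receptors 4 were tested. Flrt3, a membrane protein that binds FGF receptors, rose to 2.96 ± 0.116 FPKM in S37A libraries, against 2.26 ± 0.232 FPKM in vector libraries (log2 difference 0.28, limma adjusted p = 0.0209). Fgfrl1, a receptor that binds FGFs without a kinase domain, fell to 10.7 ± 0.245 FPKM in S37A libraries, against 12.0 ± 0.440 FPKM in vector libraries (log2 difference -0.15, limma adjusted p = 0.0394). Neither call holds throughout: the Flrt3 limma adjusted p was 0.0516, 0.0516 and 0.0725 without S37A replicates 1, 2 and 3, and that of Fgfrl1 was above 0.05 without any 1 of the 6 libraries (0.0546 to 0.131).

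Of 8 genes that activate HGF, inhibit its activation or encode its relative MSP and that ligand's receptor, 4 were tested and 0 were called. Plau, the urokinase protease that can cleave HGF, had 53.0 ± 3.41 FPKM in S37A libraries and 49.2 ± 2.22 FPKM in vector libraries. Of 24 genes for heparan sulfate synthesis, editing and core proteins 21 were tested, with 3 higher, 1 lower and a median of 0.04. Over all tested genes 6.06% were higher and 19.9% lower. Hs3st1, a sulfotransferase that adds the 3-O-sulfate, rose to 11.2 ± 0.540 FPKM in S37A libraries, against 6.77 ± 0.731 FPKM in vector libraries (log2 difference 0.66, limma adjusted p = 0.00353). Hs6st2, which adds 6-O-sulfate, rose to 38.9 ± 0.832 FPKM in S37A libraries, against 32.6 ± 1.61 FPKM in vector libraries (0.25, limma adjusted p = 0.0107). Sdc2, the core protein syndecan-2, rose to 49.2 ± 1.08 FPKM in S37A libraries, against 42.5 ± 0.740 FPKM in vector libraries (0.21, limma adjusted p = 0.0092). These 3 were called in every alternative run. Extl2, a glycosyltransferase of the chain linkage, fell to 9.33 ± 0.435 FPKM in S37A libraries, against 10.7 ± 0.203 FPKM in vector libraries (-0.18, limma adjusted p = 0.0272), and with median-ratio scaling its adjusted p was 0.126.

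All 27 adaptors and signal relays were tested, with 2 higher and 5 lower (6.06% and 19.9% over all tested genes). Their median was -0.06, and 0.01 with median-ratio scaling. Sos1, the exchange factor that loads RAS with GTP, fell to 4.87 ± 0.0327 FPKM in S37A libraries, against 5.93 ± 0.204 FPKM in vector libraries (-0.24, limma adjusted p = 0.0112). Plcg1, a phospholipase recruited by FGF receptors, fell to 9.18 ± 0.613 FPKM in S37A libraries, against 11.8 ± 0.708 FPKM in vector libraries (-0.33, limma adjusted p = 0.0119). Mapk3, which encodes ERK1, fell to 59.1 ± 0.518 FPKM in S37A libraries, against 68.3 ± 3.10 FPKM in vector libraries (-0.21, limma adjusted p = 0.0141), and without S37A replicate 3 its adjusted p was 0.0569.

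All 17 feedback and output genes of FGF and ERK signalling were tested, with 1 higher, 3 lower and 13 not called, which is close to the 6.06% higher and 19.9% lower of all tested genes. Their median was -0.03, and 0.03 with median-ratio scaling. Ier2, an immediate-early gene, fell to 37.5 ± 2.37 FPKM in S37A libraries, against 62.0 ± 4.21 FPKM in vector libraries (log2 difference -0.71, limma adjusted p = 0.00178). Egr1, an immediate-early transcription factor that ERK induces, fell to 75.8 ± 5.46 FPKM in S37A libraries, against 104 ± 6.89 FPKM in vector libraries (-0.45, limma adjusted p = 0.0077). Spry2, a Sprouty inhibitor that the pathway itself induces, fell to 24.0 ± 0.545 FPKM in S37A libraries, against 28.6 ± 0.261 FPKM in vector libraries (-0.24, limma adjusted p = 0.0063). Those 3 were called in every alternative run. Dusp5, a nuclear phosphatase of ERK, rose to 31.7 ± 1.34 FPKM in S37A libraries, against 27.7 ± 1.51 FPKM in vector libraries (0.19, limma adjusted p = 0.0345), and without S37A replicate 3 its adjusted p was 0.114.

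**Figure D4:**
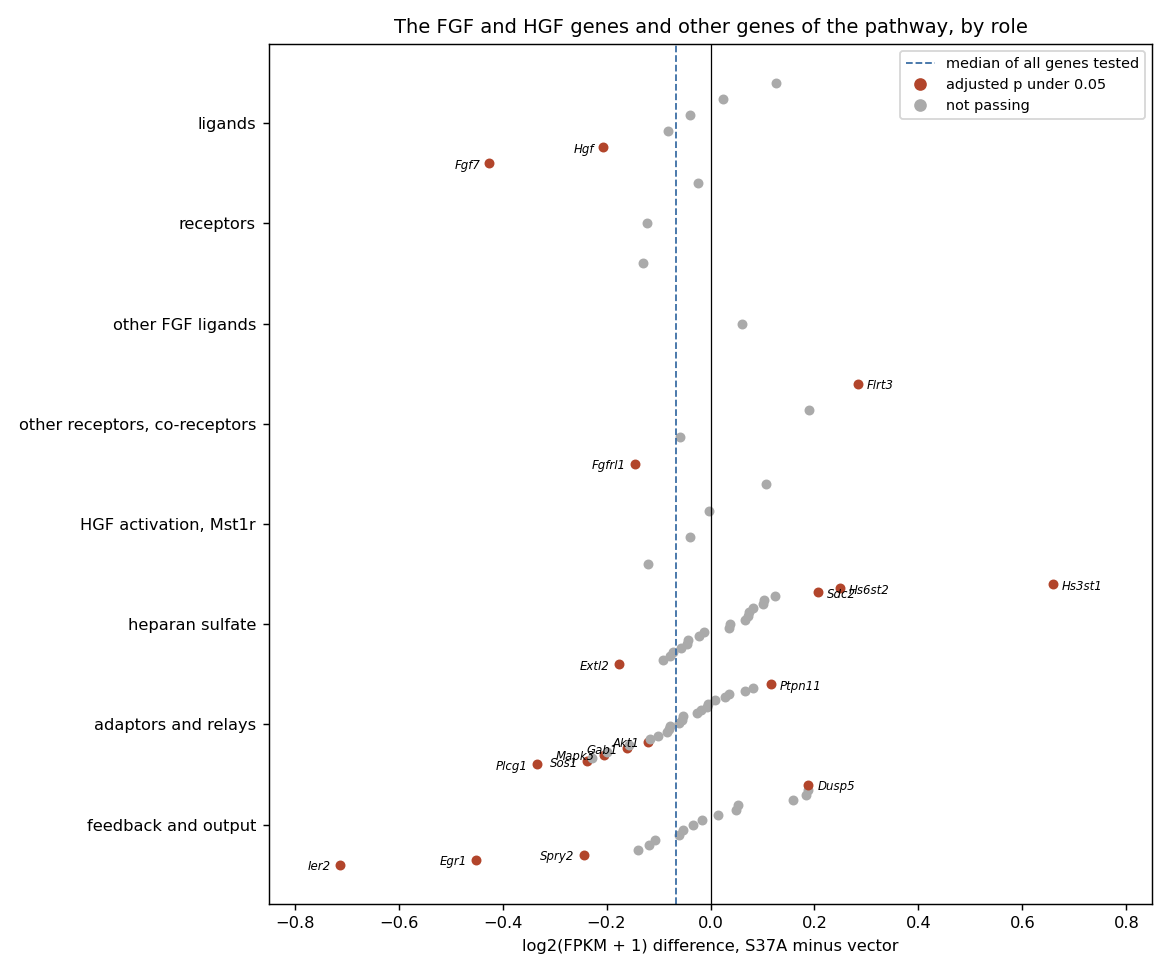
Difference in log2(FPKM + 1), S37A minus vector, of the 9 tested growth factor and receptor genes and of the tested genes of the pathway lists that are reported here, by role. Points are genes, red and named where limma's adjusted p is under 0.05, and the dashed line is the median of all tested genes (-0.07). Called genes stand on both sides of 0 among the heparan sulfate genes (3 higher, 1 lower), the adaptors and the feedback genes (1 higher, 3 lower).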

How the data were processed

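Total RNA was made into complementary DNA with a SMART-Seq kit that does not mark strand, and sequenced on an Illumina HiSeq. Sample titles gave the groups and replicate numbers. The submitters' processing notes name the mm10 build, TopHat, Cufflinks and bcl2fastq 1.8.3. Per the file headers, the deposited values are the FPKM of 34535 transcript models, each with the bounds of its confidence interval, a coverage signal, a length and a status. The coverage signal in the authors' deposited files was not tested. Read counts are not in these files, so depth was inferred from interval widths, which do not measure the spread between libraries. For genes with several models the widths do not follow counts alone. In S37A replicate 1, Fgfr1 models of 5019 and 5025 bases had 44.8 and 13.6 FPKM, and their widths correspond to 1773 and 1025 fragments.

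FPKM was summed by symbol, and 5 symbols whose status was not OK in a library were left out. Tests ran in R 4.3.3 with limma 3.58.1 and its intensity trend, on log2(FPKM + 1), which understates changes of low genes, with Benjamini-Hochberg adjustment over all 12022 genes (transcript models separately), and exact two-sided permutation tests over libraries. On simulated data with 200 of 12022 genes changed, the S37A against vector test recovered 22.5%, 84.5% and 97.5% of changes of 0.25, 0.5 and 1 on the log2 scale. Small changes were thus often missed in that setting. In the data 26.0% of tested genes were called, and the adjustment is stricter where fewer genes change. The simulated shares therefore do not give the recovery in these libraries. Alternatives varied the pseudocount, filter, scaling, trend, weights, block, models and libraries. Positions and transcript sequences are from GENCODE M21 on mm10, 1-based.

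The genes and lists were chosen with earlier results of these data known. Named are the 10 genes and, of each list, called genes among the 4 with the smallest p. Fgf13, Plau, Nudt6, Esrp1, Esrp2, Ctnnb1, Axin2, the called stromal markers and some that were not called were added for what they bear on. Some genes that meet this rule are not reported here.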

Additional observations from a re-analysis of the deposited data

How the results depend on the processing

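Against 729 genes higher in S37A, median-ratio scaling gave 1265, quantile normalization 1094 and sample weights 1238, and leaving out 1 library gave 298 to 747. Against 2393 lower, these gave 945, 957 and 3655, scaling without the 100 most abundant genes 1500, the highest model of each gene alone 1491, and leaving out 1 library 606 to 2401. Without S37A replicate 1, 2 or 3 there were 600, 358 or 298 higher and 1373, 867 or 606 lower, and without vector replicate 1, 2 or 3 there were 747, 467 or 475 higher and 2401, 1202 or 1255 lower. Of the 10 growth factor and receptor genes, 0 were higher (0 to 1 with 1 library left out) and 2 were lower: 0 with a minimum of 5 FPKM, which neither Fgf7 nor Hgf reaches, 1 with median-ratio scaling or quantile normalization, 4 with sample weights, and 1 to 2 with 1 library left out. With the highest model 1 was lower, and Hgf was not tested there, since its highest model was under the filter. Of the other pathway genes, 7 were higher (17 with median-ratio scaling, 12 with quantile normalization, 12 without the 100 most abundant genes, 13 with sample weights, 4 to 7 with 1 library left out, 4 without S37A replicate 2 or 3) and 10 lower (6 with each of these 3 scalings, 15 with sample weights, 5 to 8 with 1 library left out, 5 without S37A replicate 3 and 6 without vector replicate 2 or 3). The cause of these shifts was not tested. Leaving out a library also leaves fewer samples, and the part of this in the shifts was not tested either.

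Deviations of same-numbered libraries from their group means had correlations of -0.12, 0.02 and 0.10. With 3 libraries per group these values cannot show whether same-numbered libraries share an animal, a culture or a day of preparation. With the replicate block 442 genes were higher and 1193 lower, and 1 of the 10 genes was lower (Hgf had a limma adjusted p of 0.0678). Of the pathway genes, 6 were higher and 6 lower with the block.

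Among the 9 genes that passed the filter, 125 of the alternative values kept direction and call, 8 lost the call, 3 gained it and 9 changed sign. All the changes of sign were from differences that were not called. Fgf2 spanned -0.051 to 0.086 with 1 library left out, below 0 without S37A replicate 1. Fgf21 was at 0.0059 with median-ratio scaling, 0.020 with quantile normalization and -0.12 to 0.077 with 1 library left out, above 0 without S37A replicate 1. Fgfr1 was at 0.13 with its highest model. Fgfr2 was at 0.014 with median-ratio scaling, 0.021 with quantile normalization, 0.17 with its highest model and -0.048 to 0.0087 with 1 library left out, above 0 without S37A replicate 3. The low level of Hgf, Fgf21, Fgfr2 and Fgfr3 limits what these libraries can separate.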
